A study of Mus musculus with 19 samples.

Results

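Chromosome contacts along the mouse Shh locus were compared between embryonic stem (ES) cells and wild type limb buds, using the merged capture Hi-C map of each. The choice followed the map names, and 5 of the 19 samples of the series entered it, 2 of ES cells and 3 of wild type limb. Each map covered 280 bins of 10 kb (39340 possible bin pairs) on chromosome 5 from 27800001 to 30600000 (mm9). The ES cells were wild type cells of the strain labelled G4, a hybrid mouse ES cell line. One of the ES cell samples carries the stage label E10.5 although it is not from an embryo, the other carries no stage, and the growth protocol in the labels describes limb tissue only. The wild type limb buds were E10.5 C57BL/6, and 2 of the 3 samples share a library number. Strain and cell type therefore cannot be told apart between these maps, and values were set beside E10.5 G4 limb maps of 2 deletions, of the element named ZRSreg and of the Lmbr1 promoter (2 samples each, technical replicates per the series design), and beside E10.5 C57BL/6 wild type midbrain (2 samples). The G4 limb maps share the strain label with ES cells but carry a deletion, so they are no wild type reference. Contact maps hold no expression values, so the labelled cell types could not be checked against marker genes. A library suffix in the title of 1 ES cell library disagrees with that in the merged map name.

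Capture Hi-C counts ligations between DNA pieces that lay close to each other in fixed nuclei, after enrichment for a chosen region. Shh encodes a secreted signal that patterns the limb and the neural tube, and it is driven in the limb by the ZRS, a distant enhancer on the upper side that sits in an intron of Lmbr1. Shh and the ZRS share a contact domain, a stretch whose parts meet each other more than they meet their flanks. The neighbours En2, on the lower side, and Mnx1, on the upper side, encode homeobox transcription factors, of the midbrain and hindbrain and of motor neurons and pancreas. In ES cells many developmental genes are held silent by Polycomb proteins, often at promoters rich in CG, and no chromatin mark was measured here.

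Distances are given from the bin that holds most of the Shh promoter viewpoint of the labels, with negative values below it. The Shh promoter is the bins at -10 and 0 kb. The borders of the domain, at -30 kb and 910 kb, are minima of the mean over all 9 maps of insulation, the log2 contact in a square across a bin relative to the mean along the map. In ES cells, the Lmbr1 promoter limb and midbrain the minimum near the upper border lay at 890 kb. The En2 window (-310 to -290 kb), the ZRS window (830 to 870 kb) and the Mnx1 window (1000 to 1020 kb) were placed from general knowledge of the locus, since no annotation of the mm9 build was used. For the Mnx1 window, an earlier peak there was already known when it was placed. Gene order in the GRCm38.p6 table, counted in places from Shh, puts En2 at -3, Rbm33 at -1, Lmbr1 at 2, Nom1 at 3, Mnx1 at 4, Ube3c at 5 and Dnajb6 at 6, and no other gene is placed at a bin.

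The promoter of Mnx1 is shown because the Mnx1 window holds the bin beyond 500 kb with the highest contact with the Shh promoter in ES cells, relative to the average for its distance. The sequence runs from 250 bases before to 50 after the gene start (RefSeq, GRCm38.p6, chr5:29478421-29478720, minus strand), and the capitals mark CG.
Mnx1: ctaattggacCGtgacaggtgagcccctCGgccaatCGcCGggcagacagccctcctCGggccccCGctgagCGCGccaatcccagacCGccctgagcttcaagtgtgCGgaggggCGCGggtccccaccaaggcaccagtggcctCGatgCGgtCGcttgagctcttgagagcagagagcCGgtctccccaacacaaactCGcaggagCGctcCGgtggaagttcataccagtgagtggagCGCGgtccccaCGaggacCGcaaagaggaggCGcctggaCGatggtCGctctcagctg
It holds 26 CG (the same letters on both strands) and is 66.3% G or C. As many CG or more stand in 16.9% of the 32851 mouse promoters of the table, at least 1 stands in 94.6% of them, and the median is 7.

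Contacts were scaled as observed over expected, the balanced signal of a bin pair over the average of all pairs equally far apart in that map, so that 1 is the average for the distance. Whole contact counts were recovered from the balanced values, with 3218492 contacts in ES cells, 2862106 in wild type limb and 2201297 to 3022706 in the other 3 maps. Contacts within a bin took 23.3% of the balanced signal in ES cells and 18.8% in wild type limb, and contacts of 500 kb or more took 12.1% in ES cells, 17.8% in wild type limb and 16.6% to 17.2% in the other 3 maps. The scaling removes this difference in reach, and results with scaling to the total are in the closing section. Each group is 1 merged map, so no value has a replicate error and no test was made. The 95% intervals cover counting error only, and duplicates of 1 molecule cannot be told from separate molecules without molecular identifiers.

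The first comparison asked where in the region ES cells departed from limb. The map was cut into 1485 blocks of 50 by 50 kb at least 100 kb apart. Contact was at least 1.5-fold higher in ES cells than in wild type limb in 21 blocks (1.41%) and at least 1.5-fold lower in 136 (9.16%), which makes 10.6% in either direction. For 155 of these 157 blocks the counting interval of the log2 ratio left out 0, but they were selected on that same ratio, so this is no separate support. Against the ZRSreg limb, 18 blocks were higher (1.21%) and 110 lower (7.41%), and against the Lmbr1 promoter limb 15 were higher (1.01%) and 126 lower (8.48%). Against wild type midbrain, 33 were higher (2.22%) and 138 lower (9.29%).

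Maps of embryonic tissue differed from each other in far fewer blocks. The ZRSreg limb passed 1.5-fold over wild type limb in 5 blocks (0.337%), the Lmbr1 promoter limb in 1 (0.0673%), and wild type midbrain in 12 (0.808%). Both G4 limb maps differed from each other in 8 blocks (0.539%). The SD of the log2 ratio over blocks was 0.36 for ES cells over wild type limb, against 0.15, 0.15 and 0.20 for the ZRSreg limb, the Lmbr1 promoter limb and midbrain over the same map. These comparisons share the wild type limb map. The counts depend on the scaling: with each map scaled to its total, 6 blocks were higher in ES cells than in wild type limb and 691 lower, and with the median of each separation as the divisor 37 were higher.

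The departures were unevenly placed. Of the 306 blocks that join the domain with the area above it, 87 (28.4%) were lower in ES cells and 1 was higher. Of the 136 blocks within the domain none passed 1.5-fold, and their median log2 ratio was 0.12, against -0.04 over all blocks. Of the 342 blocks joining the domain with the area below, 20 were lower and 6 higher, and of the 153 within the area below, 6 were lower and 5 higher. As a mean over bin pairs, contact within the domain was 1.58 in ES cells and 1.43 in wild type limb (log2 0.14), and 0.01 with total scaling. Contact of the domain with the 500 kb below was 0.980 in ES cells and 0.956 in wild type limb (log2 0.04), a difference that turned to -0.14 with a flank of 300 kb and to -0.42 with total scaling. No 50 kb block counted within the domain thus departed by that size, and most of the lower blocks crossed the upper border. These blocks leave out the border block that holds the Shh promoter, and they average over 10 kb pairs.

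**Figure D1:**
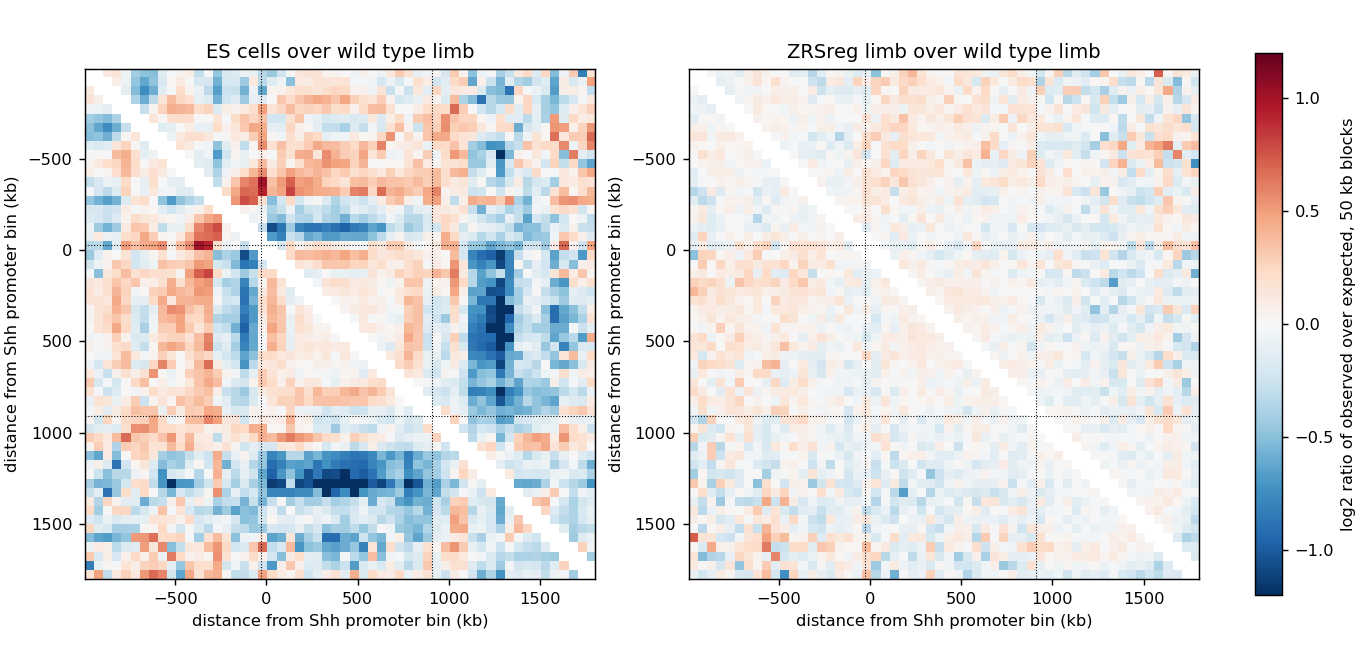
Log2 ratio of observed over expected in blocks of 50 by 50 kb, ES cells over wild type limb (left) and ZRSreg limb over wild type limb (right). Both axes are the distance from the Shh promoter bin in kb, dotted lines mark the borders at -30 and 910 kb, and blocks under 100 kb apart are blank. In ES cells a blue rectangle joins the domain with 1110 to 1350 kb, and red blocks lie near -400 to 0 kb.

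At single 10 kb pairs with 20 or more contacts in both maps, the balance was different. Of 13778 such pairs, 1221 (8.86%) were at least 1.5-fold higher in ES cells and 1066 (7.74%) lower. The counting interval left out 0 for 819 of the higher pairs and 765 of the lower ones. These pairs were selected on that same ratio, so this is no separate support. The ZRSreg limb over wild type limb gave 3.57% higher and 2.26% lower of 14960 pairs, and the Lmbr1 promoter limb gave 3.15% and 2.84% of 15977. Wild type midbrain gave 5.09% and 3.15% of 13067. The minimum is set on counts in both maps, so sparse distant pairs did not enter, nor did pairs with under 20 contacts in ES cells alone.

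The lower blocks gathered in 1 stretch above the domain, from 1110 to 1350 kb, which was singled out after the values were seen. Of the 90 blocks joining it with the domain, 68 were among the lower ones. In all, 84 of the 136 lower blocks had a side in it, but how many of all 1485 blocks do was not counted. As the stretch was chosen for its lower blocks, some gathering there is built in. In gene order Ube3c and Dnajb6 follow Mnx1 on this side, but no gene is placed in the stretch.

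The 6 lowest blocks with 100 or more contacts in both maps all joined the domain with 1210 to 1350 kb. The lowest, between 510 to 550 kb and 1260 to 1300 kb, had an observed over expected of 0.189 in ES cells (106 contacts), against 0.497 in wild type limb (368 contacts), a log2 ratio of -1.39 (95% interval -1.72 to -1.08). The same block had 0.480 in the ZRSreg limb, 0.544 in the Lmbr1 promoter limb and 0.508 in midbrain. ES cells thus stood apart from 4 embryonic maps that lay close together. The other 5 had log2 ratios from -1.35 to -1.22, on 106 to 213 contacts in ES cells and 348 to 619 in wild type limb.

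A scan in strips of 50 kb placed the edges of this loss against wild type limb. The lower edge depended on the map set against ES cells. The interior of the domain (100 to 750 kb) met the strip at 920 to 960 kb about equally often in both. The observed over expected was 0.699 in ES cells and 0.708 in wild type limb. It was 0.689 in the ZRSreg limb, but 0.846 in the Lmbr1 promoter limb and 0.812 in midbrain. The strip at 970 to 1010 kb holds most of the Mnx1 window. With it the interior had 0.478 in ES cells and 0.493 in wild type limb (log2 -0.05, interval -0.09 to 0.00). The ZRSreg limb had 0.474, the Lmbr1 promoter limb 0.588 and midbrain 0.614. The interior met the strip at 1020 to 1060 kb, which begins with the last bin of the Mnx1 window, more often in ES cells. The values there were 0.792 in ES cells and 0.665 in wild type limb (log2 0.25, interval 0.21 to 0.29). The ZRSreg limb had 0.641, the Lmbr1 promoter limb 0.708 and midbrain 0.727. The order turned in the strip at 1070 to 1110 kb, with 0.603 in ES cells and 0.667 in wild type limb (log2 -0.15, interval -0.20 to -0.09). The strip after it, at 1120 to 1160 kb, had 0.376 in ES cells and 0.603 in wild type limb, a log2 ratio of -0.68.

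The loss was deepest at 1270 to 1310 kb. There the interior of the domain had 0.242 in ES cells, against 0.522 in wild type limb, 0.489 in the ZRSreg limb, 0.532 in the Lmbr1 promoter limb and 0.534 in midbrain. The log2 ratio over wild type limb was -1.11 (interval -1.19 to -1.03). Beyond 1370 kb the ratios lay between -0.34 and -0.10. Among the strips from 1120 to 1360 kb, a limb map lay nearest to ES cells in the last, 1320 to 1360 kb, with 0.396 in ES cells, 0.540 in the ZRSreg limb and 0.633 in wild type limb.

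Seen from the other side, the stretch at 1110 to 1350 kb was lower in ES cells with each 100 kb piece of the domain from 0 to 890 kb, at log2 ratios from -0.99 to -0.62. Its observed over expected was 0.303 in ES cells and 0.575 in wild type limb with 500 to 590 kb, and 0.517 in ES cells and 0.797 in wild type limb with 800 to 890 kb. In pieces below 0 kb the ratio was smaller in size or turned round. The piece from -100 to -10 kb holds the lower border and a promoter bin. Its observed over expected was 1.24 in ES cells and 1.52 in wild type limb (log2 -0.29). With -300 to -210 kb the stretch had 1.14 in ES cells and 1.04 in wild type limb (log2 0.12). In both maps the level dropped across the Shh promoter, and the piece from 0 to 90 kb had 0.501 in ES cells and 0.914 in wild type limb (log2 -0.87).

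**Figure D2:**
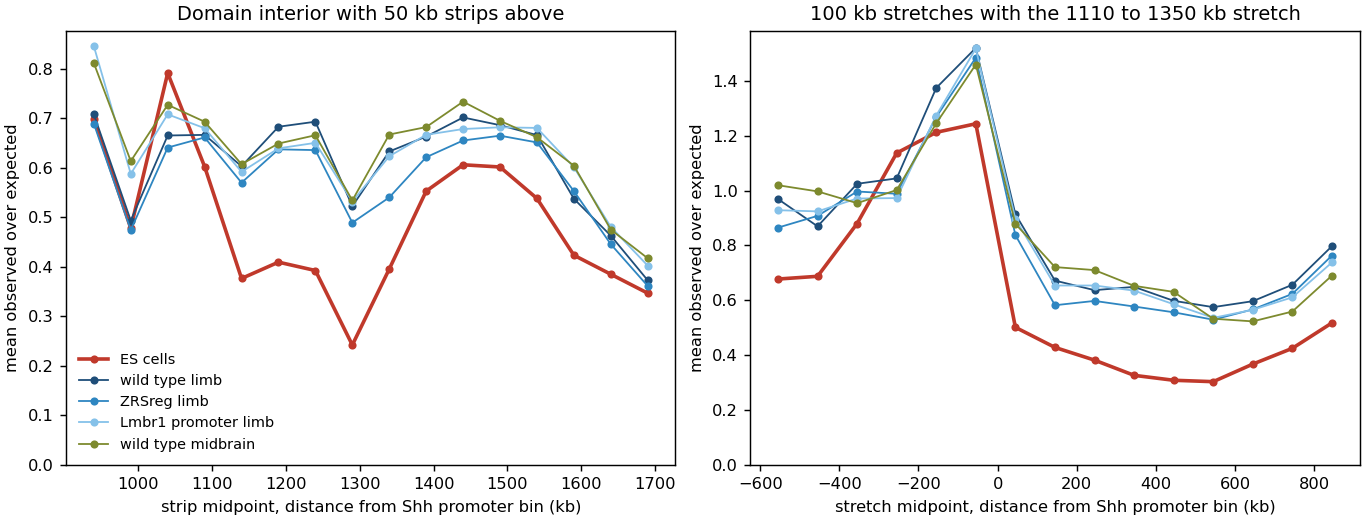
Mean observed over expected in 5 maps. Left, the domain interior (100 to 750 kb) with strips of 50 kb above the border, by strip midpoint; right, the stretch at 1110 to 1350 kb with pieces of 100 kb, by piece midpoint (kb from the Shh promoter bin). ES cells (thick red) run below the other 4 maps from 1120 to 1360 kb on the left, with 0.242 at 1270 to 1310 kb, and over the whole domain on the right.

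Single bins showed the same place, but they regroup the values from which the stretch was chosen, so this is no separate support. By the median log2 ratio over all partners 100 kb or more away, the 4 lowest bins of the region were those at 1290, 1280, 1270 and 1300 kb, with -0.64, -0.63, -0.59 and -0.52 for ES cells over wild type limb. Over the ZRSreg limb the same bins had -0.61, -0.48, -0.47 and -0.43, and over the Lmbr1 promoter limb -0.58, -0.60, -0.52 and -0.47. Recovered contacts of the bin at 1290 kb were 20361 in ES cells and 21260 in wild type limb, so its depth was alike in both maps. Leaving that bin out gave 135 lower blocks in ES cells.

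The 4 highest bins were at 1020 kb, in the Mnx1 window, with a median of 0.27, and at -340, -320 and -360 kb, with 0.26, 0.24 and 0.24. The last 3 lie just below the En2 window. Over the ZRSreg limb these 4 bins had 0.24, 0.24, 0.29 and 0.15.

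The next comparison asked which partners the Shh promoter met more often. The promoter and the En2 window had an observed over expected of 3.89 (3.71 to 4.07) in ES cells, against 1.68 (1.57 to 1.79) in wild type limb, 2.25 in the ZRSreg limb, 1.57 in the Lmbr1 promoter limb and 1.13 in midbrain. ES cells were highest and midbrain lowest, with no overlap of counting intervals between either and the rest. The log2 ratio over wild type limb was 1.21 (1.09 to 1.33) on 1748 contacts in ES cells and 868 in wild type limb, and 0.79 (0.67 to 0.91) over the ZRSreg limb. The ZRSreg limb was itself 0.43 (0.29 to 0.57) above wild type limb. Of all windows of the same shape 200 to 400 kb apart, 3.69% passed 1.5-fold higher in ES cells.

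The rise had a pair of peaks. At the centre of the En2 window, -300 kb, the promoter had 5.12 in ES cells and 1.90 in wild type limb. A second bin, at -350 kb, singled out after its value was seen, had 3.82 in ES cells and 1.56 in wild type limb. Over -400 to -310 kb as a whole the promoter had 1.99 in ES cells and 1.01 in wild type limb (log2 0.98, interval 0.89 to 1.07).

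The promoter and the Mnx1 window had 9.73 (9.13 to 10.3) in ES cells, against 5.31 (4.97 to 5.67) in wild type limb, 5.67 in the ZRSreg limb, 4.90 in the Lmbr1 promoter limb and 4.74 in midbrain. The log2 ratio was 0.87 (0.74 to 1.00) over wild type limb and 0.78 over the ZRSreg limb. The 4 embryonic maps lay between 4.74 and 5.67 and ES cells stood above them. With total scaling the log2 ratio over wild type limb was 0.33. Of windows of this shape 900 to 1100 kb apart, 4.87% passed 1.5-fold higher in ES cells. A peak at the Mnx1 window was known when it was placed, so this share gives no independent support. The gain was narrow and lay mostly at 1000 kb (9.55 in ES cells, 5.50 in wild type limb) and 1010 kb (13.1 and 5.42). The last bin of the window, at 1020 kb, had 6.56 in ES cells and 5.02 in wild type limb. Just beside the window, the bin at 990 kb had 3.45 in ES cells and 2.75 in wild type limb. The bin at 1030 kb had 3.42 in ES cells and 3.23 in wild type limb. Beyond 500 kb the Mnx1 centre bin at 1010 kb was the highest promoter bin in ES cells, whereas in wild type limb the highest was at 810 kb, beside the ZRS window.

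Contact of the promoter with the ZRS window itself was 6.77 (6.35 to 7.20) in ES cells and 6.49 (6.17 to 6.82) in wild type limb. The log2 ratio of 0.06 had an interval of -0.06 to 0.18, which leaves out changes beyond those bounds for counting error alone. Contacts of En2 with Mnx1, the partners on either side, were 8.98 (8.48 to 9.50) in ES cells and 8.28 (7.93 to 8.65) in wild type limb, a log2 ratio of 0.12 that turned to -0.08 without balancing and to -0.69 with total scaling. This pair was thus among the stronger ones in all 5 maps, at 8.26 in the ZRSreg limb, 7.24 in the Lmbr1 promoter limb and 6.32 in midbrain. The main promoter bin held 1.32 times the mean contacts of a bin in ES cells and 1.54 times in wild type limb, and without balancing the promoter ratios were 0.90 for En2 and 0.59 for Mnx1. The part of this difference in coverage in the result was not tested.

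**Figure D3:**
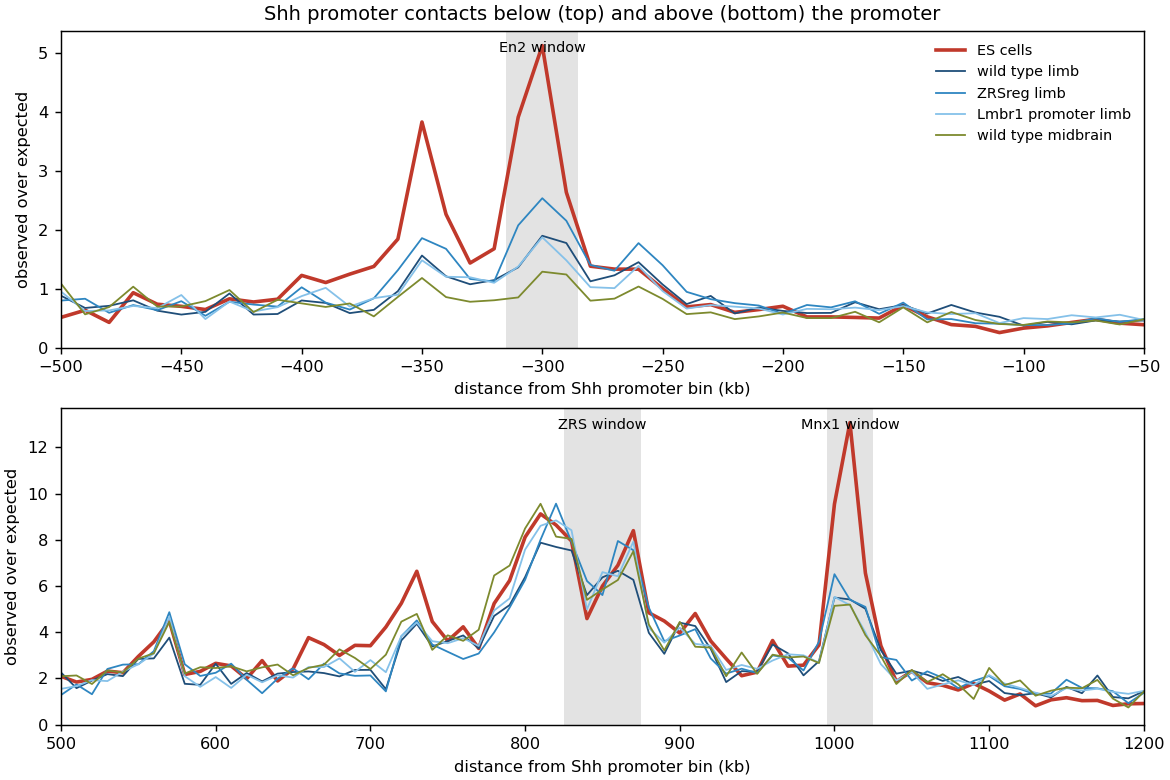
Observed over expected of the Shh promoter with each 10 kb bin in 5 maps, from -500 to -50 kb (top) and from 500 to 1200 kb (bottom), by distance from the Shh promoter bin in kb. Grey bands are the En2, ZRS and Mnx1 windows. ES cells (thick red) peak at -350, -300 and 1010 kb and run with the other maps across the ZRS window.

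A further site, at 1630 to 1650 kb, met the windows of all 3 genes more often in ES cells. It was found by ranking pairs on the excess of a 3 by 3 bin mean over its surroundings. Without a minimum of contacts that ranking gave 8 pairs with 1 to 19 contacts in the thinner map, which are not described, and a minimum of 100 contacts was added after this was seen. Of the 4 highest pairs with that minimum, 3 joined the site with the Shh promoter, the En2 window and the Mnx1 window, so their values were chosen for their size.

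With Mnx1 the site had 2.62 (2.45 to 2.81) in ES cells and 1.21 (1.10 to 1.32) in wild type limb, on 799 contacts in ES cells and 478 in wild type limb. With En2 it had 2.54 in ES cells and 1.19 in wild type limb. With the Shh promoter it had 2.05 (1.68 to 2.47) in ES cells, 0.907 (0.729 to 1.12) in wild type limb and 1.39 (1.13 to 1.68) in the ZRSreg limb, on 110 contacts in ES cells and 89 in wild type limb. The last pair is the least certain, since its counts are few and the log2 ratio over the ZRSreg limb was 0.56 (0.16 to 0.96). Windows of the same shape passed 1.5-fold higher in ES cells in 2.51% of cases 500 to 800 kb apart (for Mnx1), 3.41% of cases 1000 to 2000 kb apart (for En2) and 6.65% of cases 1500 to 1800 kb apart (for the Shh promoter). No gene is placed at this site.

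**Figure D4:**
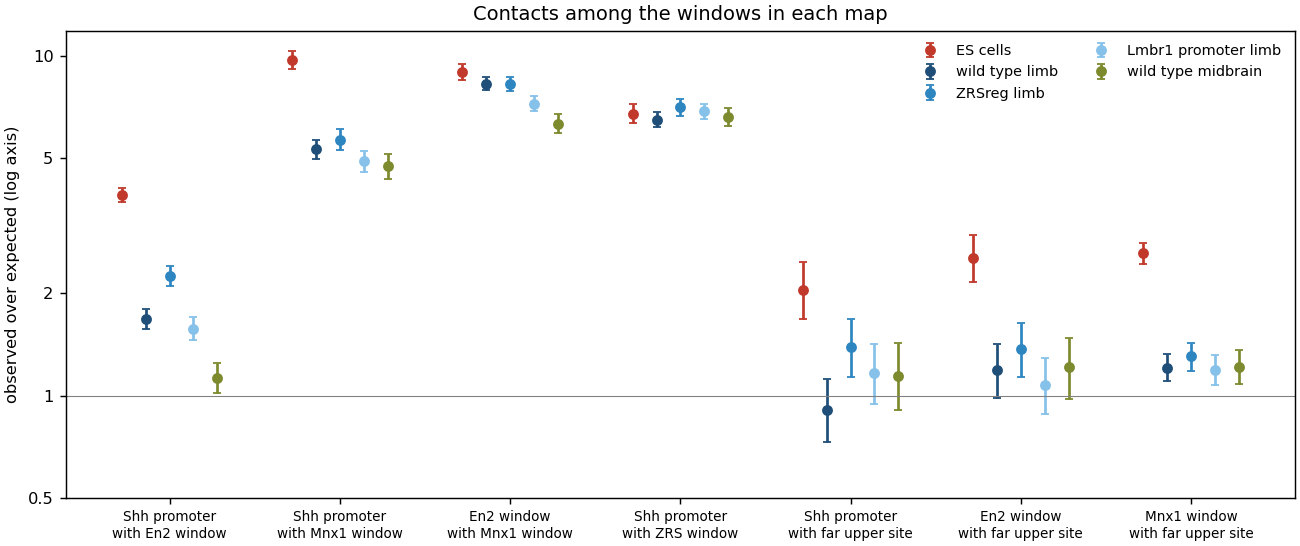
Observed over expected (log axis) for 7 pairs of windows in 5 maps, with ES cells leftmost in each set and bars for the 95% counting interval. ES cells stand above the other maps for the Shh promoter with En2 (3.89) and Mnx1 (9.73) and for the 3 pairs with the site at 1630 to 1650 kb, and among them for the Shh promoter with the ZRS (6.77).

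Of the balanced signal of the Shh promoter at 20 kb or more, 30.4% (29.9 to 30.9) lay below the lower border in ES cells and 27.0% (26.5 to 27.4) in wild type limb. The share within the domain was 56.5% in ES cells and 55.4% in wild type limb. The share above the upper border was 10.6% in ES cells and 15.0% in wild type limb, and it was 15.3% in the ZRSreg limb, 14.7% in the Lmbr1 promoter limb and 14.3% in midbrain. The promoter thus gained at the Mnx1 window while its contacts above the upper border as a whole were a smaller share. These shares are not scaled for separation, so the shorter reach of all ES cell contacts enters them.

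The promoter followed the stretch above Mnx1. With 1300 to 1390 kb it had 0.530 in ES cells and 0.918 in wild type limb (log2 -0.79, interval -1.13 to -0.47). Inside the domain the nearest stretch counted was 50 to 90 kb (5 bins), since nearer bins did not enter. There the promoter was lower, at 0.569 in ES cells and 0.640 in wild type limb (log2 -0.17, interval -0.27 to -0.06). With 100 to 190 kb it was higher, at 0.983 in ES cells and 0.740 in wild type limb (log2 0.41, interval 0.32 to 0.50). At 700 to 790 kb it had 4.66 in ES cells and 3.60 in wild type limb. Midbrain lay between these at 4.29, with 3.80 in the Lmbr1 promoter limb and 3.35 in the ZRSreg limb.

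Of the 6 highest blocks with 100 or more contacts in both maps, 4 lay between -390 kb and the promoter. The highest of all, between -390 to -350 kb and -40 to 0 kb, had 1.66 in ES cells (1824 contacts), against 0.827 in wild type limb (935 contacts), with a log2 ratio of 1.01 (0.89 to 1.12). The block between -340 to -300 kb and -40 to 0 kb followed with 2.05 in ES cells and 1.07 in wild type limb (log2 0.93). Both hold the Shh promoter on 1 side. The 4 others had log2 ratios of 0.72 to 0.81, and 2 of them, between -290 to -250 kb and -140 to -50 kb, lay wholly outside the domain, while the other 2 joined -390 to -300 kb with 110 to 150 kb inside it.

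Wider stretches, chosen after the values were seen, showed contact gained on the lower side of the border, and both gained and lost across it. The stretch at -400 to -250 kb met -150 to -50 kb at 1.38 in ES cells and 0.877 in wild type limb. The Lmbr1 promoter limb (1.04) and midbrain (1.17) lay between these, and the ZRSreg limb (0.885) lay beside wild type limb. Across the border, -150 to -50 kb met 10 to 150 kb at 0.278 in ES cells, against 0.440 in wild type limb, 0.435 in the ZRSreg limb, 0.444 in the Lmbr1 promoter limb and 0.417 in midbrain. The log2 ratio over wild type limb was -0.66 (-0.71 to -0.61). The stretch farther below went the other way across the border. There -400 to -250 kb met 10 to 150 kb at 0.650 in ES cells, against 0.510 in wild type limb, 0.550 in the ZRSreg limb, 0.486 in the Lmbr1 promoter limb and 0.421 in midbrain. The area farther below, -900 to -410 kb, met -400 to -50 kb almost equally, at 1.07 in ES cells and 1.06 in wild type limb.

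Insulation was compared bin by bin along the diagonal. Its lowest value in the region was at the lower border, with -1.55 in ES cells and -1.04 in wild type limb, and with -1.11 in the ZRSreg limb, -1.01 in the Lmbr1 promoter limb and -1.12 in midbrain. At the upper border the values were -0.75 in ES cells and -0.78 in wild type limb, a difference whose sign depended on the map set against ES cells and on the size of the square. At 890 kb, the minimum of ES cells, the value was -0.84 in ES cells, -0.76 in wild type limb, -0.77 in the ZRSreg limb, -0.64 in the Lmbr1 promoter limb and -0.71 in midbrain. At the lower border the difference was -0.51, and -0.19 with squares of 5 by 5 bins. The lower border was thus the deeper one in every map, and the deepest in ES cells.

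Beyond the borders, the largest rise in insulation value was at -210 kb, with 0.25 in ES cells, -0.19 in wild type limb, -0.17 in the ZRSreg limb, 0.00 in the Lmbr1 promoter limb and 0.12 in midbrain. Wild type limb had a local minimum of -0.25 at -180 kb, where ES cells had 0.05. At the upper end of the depleted stretch the minimum of ES cells lay at 1340 kb, with -0.50 in ES cells and -0.15 in wild type limb. In the other 4 maps it lay at 1300 kb, with -0.34 in ES cells and -0.23 in wild type limb. A minimum at -360 kb, in the stretch that gained contact with the promoter, had -0.53 in ES cells and -0.34 in wild type limb. Another, at -790 kb, had -0.37 in ES cells and -0.12 in wild type limb. Over 260 bins the SD of the difference was 0.17 for ES cells minus wild type limb, and 0.05, 0.07 and 0.09 for the ZRSreg limb, the Lmbr1 promoter limb and midbrain minus the same map.

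**Figure D5:**
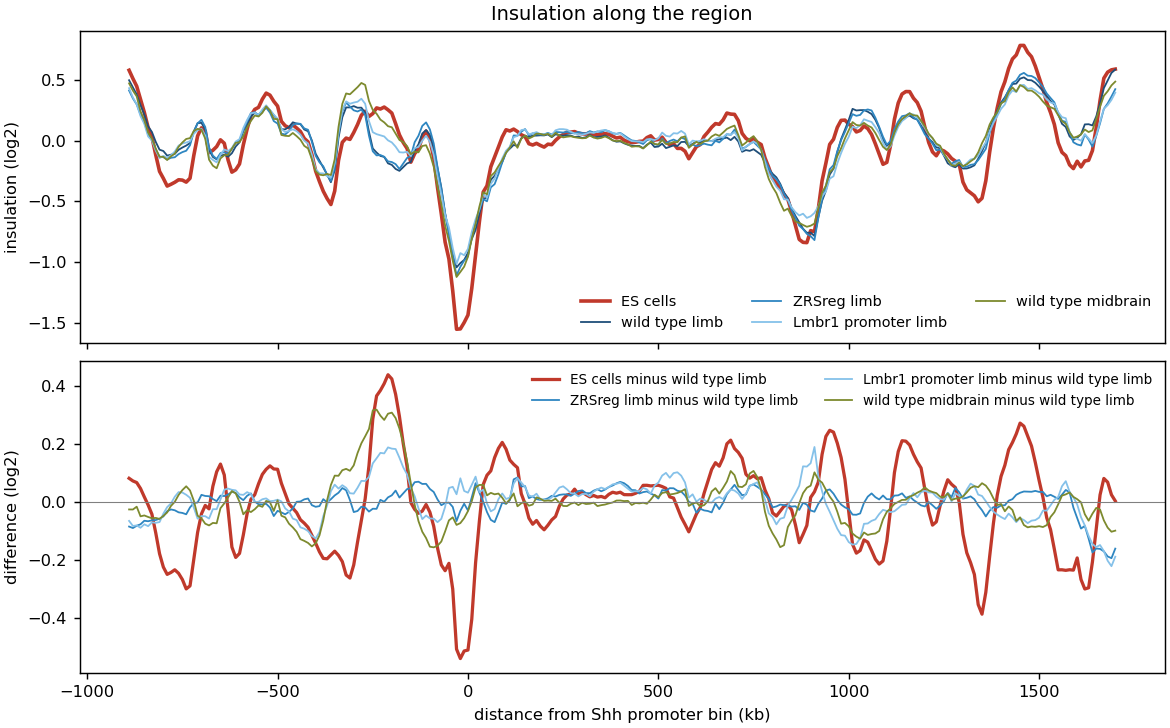
Insulation (log2) in 5 maps (top) and its difference from wild type limb (bottom), by distance from the Shh promoter bin in kb. ES cells (thick red) reach -1.55 at the lower border, rise above wild type limb most at -210 kb, and fall below the other maps at 1340 kb, with -0.50.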

How the data were processed

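The submitters' processing notes name the mm9 build and the tools Bowtie2 2.3.4.1, cutadapt 1.15, SAMtools and Juicer, with settings not given in the sources used here. Each deposited value is a balanced (KR) signal per pair of 10 kb bins, 1 merged map per group, per the names of the deposited files. Of 9 maps, 5 were compared, and all 9 entered the placing of the borders. The series design calls wild type replicates biological and mutant replicates technical.

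Pairs not listed were taken as 0. Observed over expected, blocks, windows, areas, shares and insulation (squares of 10 by 10 bins) were computed with Python 3.11.15, NumPy 2.4.6, SciPy 1.17.1 and pandas 2.3.3. Counts are the signal over 2 bin factors, 100% of them within 0.01 of a whole number. Intervals are exact (Poisson for values, binomial for ratios, Wilson for shares), at 95%, scaled to the balanced value. The steps were tested on simulated data. Named features were the windows, both borders, the highest promoter bin beyond 500 kb, the 6 highest and 6 lowest blocks, the 4 highest and 4 lowest bins, and the 4 largest and 4 smallest excesses of a 3 by 3 bin mean. Members and lists were chosen with earlier results of these data known. Alternatives were the median expected value, total scaling, counts without balancing, other limb or midbrain maps, folds, blocks, windows, flanks, separations and squares.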

Additional observations from a re-analysis of the deposited data

How the results depend on the processing

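No paired analysis was possible because the libraries of each group were merged before deposit, and for the same reason no library was left out. Values are log2 ratios of ES cells over wild type limb (differences for insulation) unless they are block counts, and the cause of each change was not tested. Of 85 alternative values, 30 stayed near the main one, 47 moved and 8 changed sign.

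A median in place of the mean in the scaling gave 37 higher blocks, 0.18 within the domain, -0.29 for the domain with the area above and 0.062 with the area below. Scaling to the total, which keeps the shorter reach of ES cell contacts, gave 6 higher and 691 lower blocks, 0.0080 within the domain, -0.60 with the area above, -0.42 with the area below (0.035 in the main setting), 0.33 for the promoter with Mnx1 and -0.69 for En2 with Mnx1. Counts without balancing gave -0.36 for the domain with the area above, 0.59 and 0.90 for the promoter with Mnx1 and En2, -0.082 for En2 with Mnx1, -0.59 for the promoter share above the upper border, and -0.74 and -0.17 for insulation at the lower and upper border.

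Over the ZRSreg limb the values were 0.13 within the domain, -0.26 with the area above, 0.010 with the area below, 0.79 for the promoter with En2 and -0.44 at the lower border. Over the Lmbr1 promoter limb they were 0.12 within the domain, -0.36 above, 0.068 below, 0.31 for En2 with Mnx1 and -0.15 at the upper border. Over midbrain they were 33 higher blocks, 0.073 within the domain, -0.36 above, 0.13 below, 1.04 and 1.79 for the promoter with Mnx1 and En2, 0.51 for En2 with Mnx1, -0.44 for the share above the upper border, and -0.43 and -0.067 at the lower and upper border.

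A 2-fold threshold left 1 higher and 23 lower blocks. Blocks of 3 by 3 bins gave 141 higher and 475 lower, and blocks of 10 by 10 bins 2 and 25. A flank of 300 kb gave -0.16 for the domain with the area above and -0.14 with the area below. Separations of 100 kb or more gave 0.15 within the domain. The centre bins alone gave 1.27 and 1.43 for the promoter with Mnx1 and En2 and 0.44 for En2 with Mnx1, and the main promoter bin alone gave -0.70 for the share above the border. Squares of 5 by 5 bins gave -0.19 and 0.081 at the lower and upper border, and squares of 20 by 20 bins -0.40 and -0.094. Neither scaling alters a share, and the median does not enter insulation. Leaving out the bin of the lowest median, added after seeing the data, gave 21 higher and 135 lower blocks. Depth limits the far pairs most, with a median of 199 contacts in ES cells and 442 in wild type limb per block past 1.5-fold.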
